A study of Homo sapiens with 10 samples.

Results

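The 10 genes described here encode AMPK, its activating kinase LKB1 and a set of sirtuins, which are enzymes that read the energy and redox state of a cell. They were chosen by name among the 78932 identifiers of the gene table. All 10 were found and passed the filter on low counts, as did 21033 genes in all. The cells were cardiomyocytes differentiated from H1, a long-established line of human embryonic stem cells. The 5 knockdown libraries came from beating cells transfected on day 9 of differentiation with 50 nM of a GapmeR against CLIPPER, an RNA that gives the series its title. The 5 control libraries came from cells given 50 nM of a control GapmeR in the same way, with the genotype label WT. A GapmeR is an antisense oligonucleotide that directs RNase H to cut the RNA it pairs with. Both groups were collected 48 hours later and share the cell line, the differentiation and the transfection. All libraries come from a single cell line. Neither the GapmeR sequences nor separate cultures or differentiations behind the replicates are given in the sources used here, so p-values measure the spread between these samples, which may be technical. No gene in the annotation used here is named CLIPPER, so the labels were not checked against the targeted RNA.

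AMPK is a heterotrimer of a catalytic alpha, a scaffolding beta and a nucleotide-binding gamma subunit, and each subunit is encoded by more than one gene. When AMP and ADP rise, they bind gamma, and LKB1 phosphorylates alpha in its activation loop. The active kinase then turns on fatty acid oxidation and glucose uptake and turns off lipid and protein synthesis. In heart muscle, alpha 2 is the main catalytic form, and inherited variants of gamma 2 cause a glycogen storage cardiomyopathy. Sirtuins remove acyl groups from lysines and consume NAD+ in doing so. SIRT1 acts mostly in the nucleus, and SIRT3, SIRT4 and SIRT5 act in mitochondria. AMPK activity is set by phosphorylation and sirtuin activity by NAD+, and neither was measured in these RNA data.

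Libraries held 32.9 to 42.1 × 1e6 counts in the knockdown group and 33.5 to 45.1 × 1e6 in the control group. Levels are given as CPM, counts per 1e6 scaled with trimmed mean of M-values (TMM) factors, and 1 count stood for about 0.026 CPM in a library of average size. Single members had 464 to 22194 counts in a library. The first principal component, with 85.2% of the variance, separated all knockdown from all control libraries. On it, knockdown replicate 2 stood closest to the control libraries, followed by knockdown replicate 1. Defining cardiomyocyte markers were present, and their summed level was 15501 to 27835 CPM in knockdown and 42426 to 64687 CPM in control libraries. Of 12 genes, 10 were lower and 0 higher (adjusted p below 0.05, edgeR). Over all tested genes 39.6% were lower and 40.1% higher, the shares to set beside this and each marker count that follows. Fewer cells of a type and less RNA per cell cannot be told apart in such samples. Smooth muscle markers summed to 506 to 918 CPM in knockdown and 1194 to 2460 CPM in control libraries, with 6 of 6 lower. Epicardial and stromal markers summed to 946 to 1107 CPM in knockdown and 1265 to 1384 CPM in control libraries, with 6 lower and 1 higher of 9 tested. Endothelial markers, mostly KDR, summed to 9.03 to 18.1 CPM in knockdown and 30.7 to 52.1 CPM in control libraries, with 3 lower and 0 higher of 5 tested. PECAM1, CDH5, TIE1 and VWF stayed below 1 CPM in every library. Neural markers, mostly the broadly expressed NES, summed to 693 to 910 CPM in knockdown and 581 to 1202 CPM in control libraries, with 1 higher and 1 lower of 3 tested. Endoderm markers summed to 13.7 to 22.4 CPM in knockdown and 10.9 to 12.4 CPM in control libraries. Of 3 tested, APOA1 was higher (14.9 CPM in knockdown and 6.03 CPM in control libraries) and EPCAM lower (2.37 and 5.25 CPM in the same order). Pluripotency markers summed to 4.27 to 7.27 CPM in knockdown and 0.942 to 1.86 CPM in control libraries, with 3 higher and 0 lower of 4 tested. POU5F1, NANOG and SOX2 stayed below 1 CPM in every library. The part of these marker shifts in the results for the 10 genes was not tested. Genes of the mitochondrial genome took 11.5%, 10.9%, 16.2%, 17.5% and 15.96% of counts in knockdown replicates 1 to 5 and 10.03% to 12.2% in control libraries. With those genes removed, 4 members were still called higher and 4 lower.

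Of the 10 genes, 4 were higher in the knockdown (PRKAA2, PRKAB1, PRKAB2 and SIRT1), 4 were lower (PRKAG1, PRKAG2, SIRT3 and SIRT5), and PRKAA1 and STK11 did not pass the test (edgeR's quasi-likelihood test, adjusted p below 0.05 over 21033 genes). Among all tested genes 79.7% were called, 40.1% higher and 39.6% lower, so the number of members called is what this table gives for genes in general. The members' median log2 fold change was -0.03, against 0.0056 for all tested genes. In 8 of 10 members the groups did not overlap, which held for 67.5% of all tested genes, 33.7% with the knockdown higher and 33.8% with it lower. All 8 calls kept their direction and their side of the threshold under each alternative setting that was run.

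**Figure D1:**
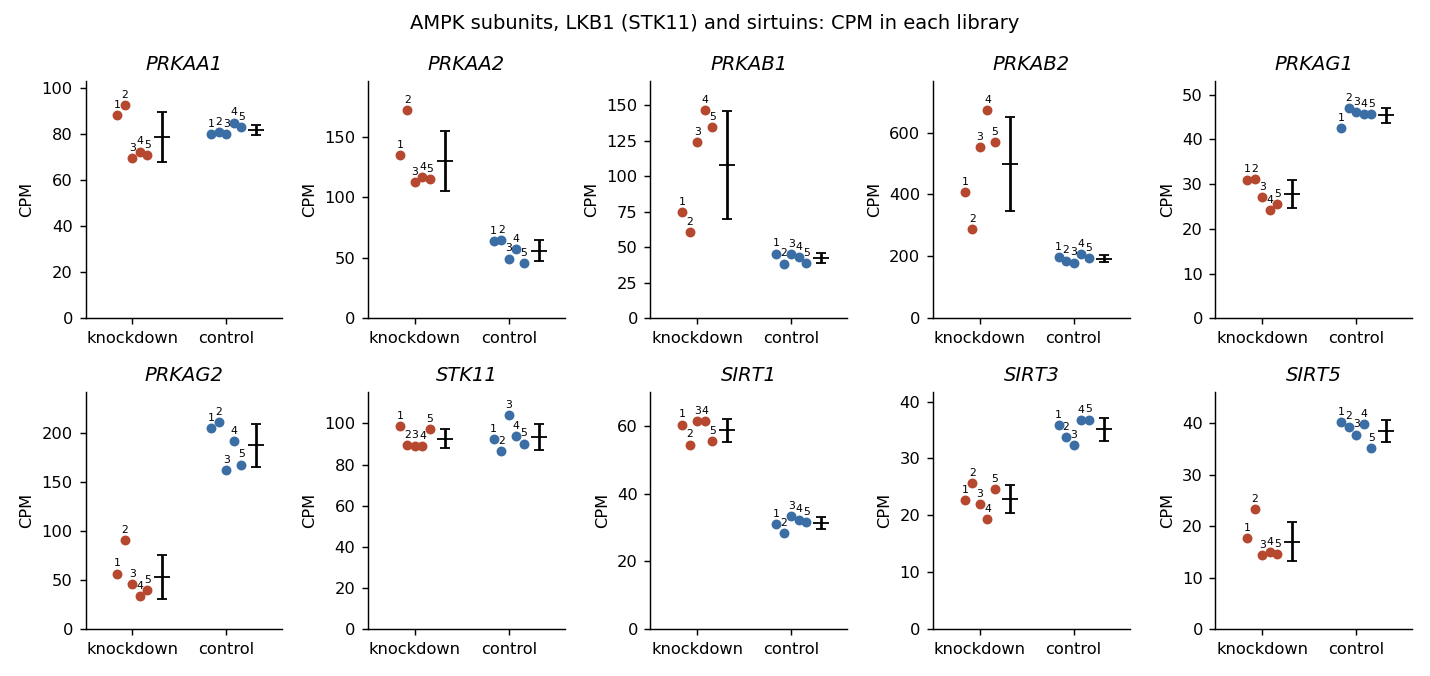
Each panel plots the CPM of a gene in the 5 knockdown libraries (left) and 5 control libraries (right), with replicate numbers above the points and the mean ± SD beside them. PRKAA2, PRKAB1, PRKAB2 and SIRT1 lie higher in all knockdown libraries, PRKAG1, PRKAG2, SIRT3 and SIRT5 lie lower in all of them, and PRKAA1 and STK11 overlap.

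Of the catalytic genes, PRKAA2 rose and PRKAA1 did not pass the test. PRKAA2 (ENSG00000162409, chromosome 1, 56645314 to 56715335, plus strand, GRCh38) encodes alpha 2. Its level was 135, 172, 113, 117 and 115 CPM in knockdown replicates 1 to 5, against 63.6, 64.6, 49.4, 57.2 and 45.3 CPM in control replicates 1 to 5. Every knockdown library lay above every control, and knockdown replicate 2, the library nearest to the controls on the first principal component, was the highest of all. PRKAA2 was 2.33-fold higher in the knockdown (log2 fold change 1.22 ± 0.142 SE, adjusted p = 6.3e-06, edgeR).

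PRKAA1 (ENSG00000132356, chromosome 5, 40759389 to 40798374, minus strand), the gene of alpha 1, which most tissues express, had 88.1, 92.4, 69.6, 72.3 and 70.6 CPM in knockdown replicates 1 to 5. The control replicates had 79.9, 80.9, 79.8, 84.9 and 83.1 CPM. Knockdown replicates 1 and 2 were above all controls and the other 3 below all controls, so the means, 78.6 ± 10.8 CPM in the knockdown and 81.7 ± 2.23 CPM in the control group (SD, n = 5 each), average over a split group. The log2 fold change was -0.06, with a 95% interval from -0.24 to 0.13 and an adjusted p of 0.6 (edgeR). Without knockdown replicates 1 and 2 it was -0.22 and passed the test (adjusted p = 0.0029, edgeR).

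Within a library the ratio of paralog counts does not depend on scaling, and it was compared for the alpha, beta and gamma pairs. The log2 ratio of PRKAA2 to PRKAA1 counts averaged 0.72 ± 0.105 in knockdown and -0.56 ± 0.237 in control libraries (SD, n = 5 each). The difference of 1.28 ± 0.116 (SE) is a 2.43-fold shift toward PRKAA2, seen in 5 of 5 knockdown libraries (exact permutation test, two-sided p = 0.0079, adjusted p = 0.012 over 3 ratios). That p is the smallest which 5 against 5 libraries allow.

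**Figure D2:**
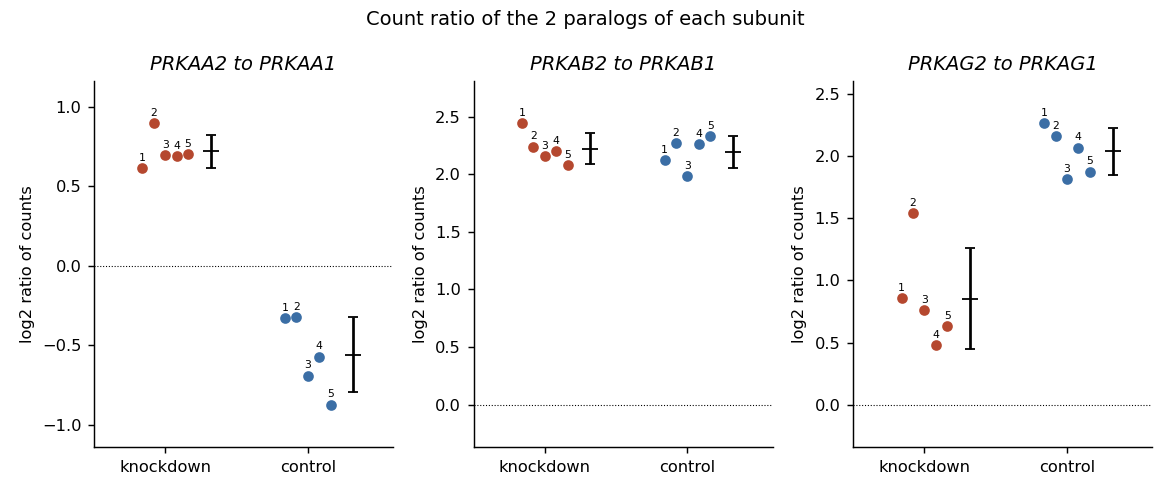
Log2 ratio of raw counts of the second paralog to the first for alpha, beta and gamma in each knockdown (left) and control (right) library, with replicate numbers and mean ± SD. The groups separate for alpha, at 0.61 to 0.90 in knockdown and -0.87 to -0.32 in control libraries, and for gamma, and overlap for beta.

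The beta genes rose together. PRKAB2 (ENSG00000131791, chromosome 1, 147155106 to 147172550, minus strand) encodes beta 2, the form most abundant in striated muscle. It had 406, 287, 554, 672 and 569 CPM in knockdown replicates 1 to 5, against 198, 186, 180, 206 and 195 CPM in the controls. All knockdown libraries lay above all controls, with replicates 1 and 2 the lowest of the 5. PRKAB2 was 2.58-fold higher (log2 fold change 1.37 ± 0.192 SE, adjusted p = 3e-05, edgeR).

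PRKAB1 (ENSG00000111725, chromosome 12, 119667864 to 119681624, plus strand), which encodes beta 1, had 74.8, 60.8, 124, 147 and 135 CPM in knockdown replicates 1 to 5. In control replicates 1 to 5 it had 45.5, 38.5, 45.4, 43.0 and 38.8 CPM. Replicates 1 and 2 were again the lowest of the knockdown libraries and still above all controls. The log2 fold change was 1.36 ± 0.216 (SE), or 2.56-fold (adjusted p = 8.8e-05, edgeR). A long non-coding gene on the opposite strand, ENSG00000248636, shares 103 bases of exon with PRKAB1, or 1.71% of its exon length, and rose too, by 1.33 on the log2 scale (adjusted p = 9e-05, edgeR). The strand setting of the counting is not given in the sources used here, so reads in such a stretch cannot be told apart.

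For the beta pair the ratio differed by less than the spread between replicates. The log2 ratio of PRKAB2 to PRKAB1 counts was 2.22 ± 0.136 in knockdown and 2.19 ± 0.139 in control libraries (SD, n = 5 each), a difference of 0.03 ± 0.0869 (SE, exact permutation test, two-sided p = 0.75). Across the 10 libraries log2 CPM of both genes had a Pearson correlation of 0.99, a description over libraries of 2 groups.

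The gamma genes both fell, PRKAG2 more than PRKAG1. PRKAG2 (ENSG00000106617, chromosome 7, 151556124 to 151877214, minus strand) encodes gamma 2. It had 56.3, 90.6, 45.8, 33.7 and 39.5 CPM in knockdown replicates 1 to 5, against 205, 211, 162, 191 and 167 CPM in the controls. No knockdown library reached a control, and replicate 2 stood highest among them. The change was 3.52-fold lower (log2 fold change -1.81 ± 0.232 SE, adjusted p = 1.4e-05, edgeR), the widest of the 10 members in either direction. PRKAG2 has 5 RefSeq start sites spread over 244.9 kb, and gene counts do not say which of its transcripts fell. PRKAG2-AS1, an antisense gene that shares 99 bases of exon with it, had 237 counts in all knockdown and 7 in all control libraries.

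PRKAG1 (ENSG00000181929, chromosome 12, 49002274 to 49018807, minus strand), the gene of the widespread gamma 1, had 31.0, 31.2, 27.0, 24.2 and 25.5 CPM in knockdown replicates 1 to 5. Its control values were 42.6, 47.1, 46.1, 45.6 and 45.7 CPM, all above the knockdown. It was 1.63-fold lower (log2 fold change -0.71 ± 0.0892 SE, adjusted p = 1.2e-05, edgeR). Its counts are uncertain, because the read-through gene ENSG00000288710 on the same strand covers 49.5% of its exon length. That gene held 85 counts in all knockdown and 124 in all control libraries. DDN-AS1, on the opposite strand, covers 12.3% of the exon length of PRKAG1 and averaged 8.04 ± 3.46 CPM in knockdown and 1.15 ± 0.187 CPM in control libraries (SD, n = 5 each).

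The log2 ratio of PRKAG2 to PRKAG1 counts was 0.85 ± 0.408 in knockdown and 2.04 ± 0.190 in control libraries (SD, n = 5 each). The difference of -1.18 ± 0.201 (SE) is a 2.27-fold shift toward PRKAG1, present in 5 of 5 knockdown libraries (exact permutation test, two-sided p = 0.0079, adjusted p = 0.012 over 3 ratios). PRKAG3, the gamma 3 gene known from skeletal muscle, had 0 counts in all 10 libraries. Both ratio calls are lost without knockdown replicates 1 and 2, at adjusted p = 0.054 each, the smallest that 3 against 5 libraries can give here, while the differences were 1.25 for alpha and -1.41 for gamma.

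Levels of different genes can be set side by side only per length, here as CPM per kb of the canonical transcript. In knockdown libraries PRKAB2 led with 93.2 ± 28.3 CPM per kb, followed by PRKAB1 with 48.8 ± 17.1 and STK11 with 28.1 ± 1.45 (SD, n = 5). The SDs of PRKAB2 and PRKAB1 are wide, with knockdown replicates 1 and 2 the lowest for both genes, so the pair was compared within each library. Within knockdown libraries PRKAB2 had 4.23 to 5.44 times the counts of PRKAB1, on canonical transcripts of 5.34 and 2.22 kb. PRKAB2 was thus the higher per kb in each of them. PRKAG1 (16.8 ± 1.92), PRKAG2 (16.2 ± 6.86), PRKAA1 (14.96 ± 2.05), SIRT1 (14.3 ± 0.824) and PRKAA2 (13.9 ± 2.67) could not be ranked against their neighbours beyond their SDs. SIRT3 with 7.92 ± 0.842 and SIRT5 with 3.72 ± 0.830 CPM per kb were lowest.

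In control libraries the order differed, and PRKAG2 led with 57.1 ± 6.62 CPM per kb, followed by PRKAB2 with 36.1 ± 1.94 (SD, n = 5). STK11 with 28.4 ± 1.98 and PRKAG1 with 27.4 ± 1.01 lay within their spread of each other. Below them came PRKAB1 with 19.0 ± 1.54 and PRKAA1 with 15.5 ± 0.425 CPM per kb, and PRKAA2 was the lowest of the 10 with 5.99 ± 0.910. The sirtuins SIRT3, SIRT5 and SIRT1 had 12.2 ± 0.681, 8.43 ± 0.460 and 7.65 ± 0.459 CPM per kb in these controls, the last pair separated by less than their SDs together. With all annotated exons as the length, which was tried after the data were seen, PRKAG2 dropped to 11.3 CPM per kb in controls and was no longer first, so the order between genes depends on the transcript taken.

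Summed over both genes of a subunit, the level per kb of canonical transcript was 28.9 ± 4.61 for alpha in knockdown and 21.5 ± 0.902 in control libraries (SD, n = 5 each). Beta summed to 142 ± 45.2 CPM per kb in knockdown and 55.2 ± 2.53 in control libraries. Gamma summed to 32.99 ± 8.56 CPM per kb in knockdown and 84.5 ± 6.48 in control libraries. The summed beta level divided by the summed gamma level was 1.75 to 7.71 in knockdown and 0.563 to 0.700 in control libraries. With all annotated exons as the length it was 4.84 to 18.8 in knockdown and 1.68 to 2.00 in control libraries, so beta lay below gamma in controls on the first length only, while the groups stood apart on both. These are sums of RNA, with no test, and do not measure protein complexes. The gamma sum, the division by it and the level of PRKAG1 per kb carry the uncertainty of the PRKAG1 counts stated above.

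**Figure D3:**
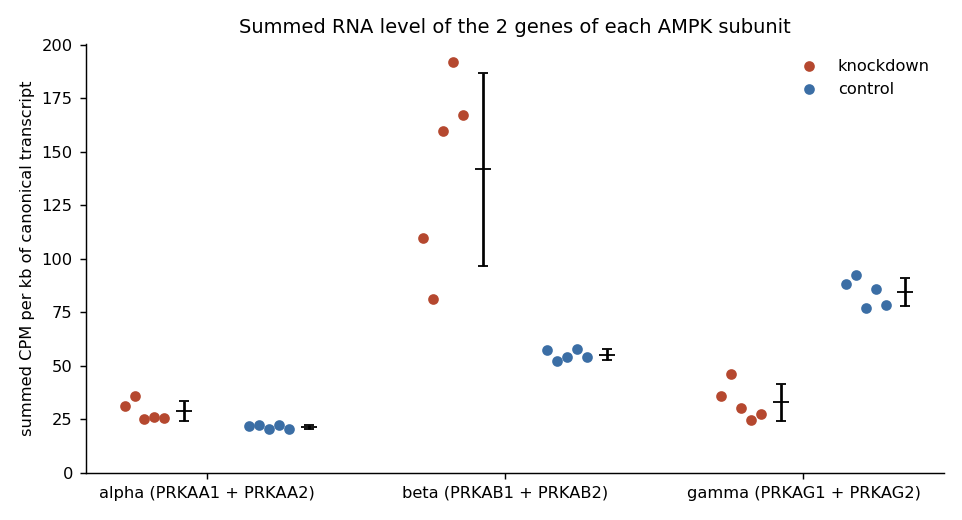
CPM per kb of canonical transcript summed over the 2 genes of each AMPK subunit, with 1 point for each library (knockdown left, control right) and mean ± SD. Alpha and beta are higher and gamma lower in all 5 knockdown libraries. Alpha is at 25.3 to 36.0 CPM per kb in knockdown and 20.5 to 22.3 in control libraries. Beta varies widely among knockdown libraries, at 81.2 to 191.9 CPM per kb.

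STK11, which encodes LKB1, did not pass the test. STK11 (ENSG00000118046, chromosome 19, 1177558 to 1228431, plus strand) had 98.6, 89.5, 89.2, 88.8 and 97.1 CPM in knockdown replicates 1 to 5, against 92.4, 86.7, 104, 93.8 and 90.2 CPM in the controls. The groups overlapped throughout. The log2 fold change was -0.01, with a 95% interval from -0.16 to 0.14 (adjusted p = 0.89, edgeR). Upper-quartile scaling, which shifts the median of all genes by 0.20, moved it to 0.19 with an adjusted p of 0.049 (edgeR). CBARP, a coding gene on the opposite strand, shares 145 bases of exon with STK11, or 1.65% of its exon length. It rose by 1.12 on the log2 scale (adjusted p = 2.7e-06, edgeR), and reads in the shared stretch cannot be told apart.

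LKB1 works in a complex with the pseudokinase STRAD and the scaffold MO25, and AMPK can also be phosphorylated by the calcium-dependent CAMKK2. Of 7 genes of LKB1 partners and upstream kinases, 5 fell and 0 rose, where 39.6% of all tested genes were lower and 79.7% were called. Their median log2 fold change was -0.57, against 0.0056 for all tested genes. The median gene span of this list was 73.5 kb. Among coding genes that span 30 to 100 kb, 57.0% fell, and the median of that class was -0.48. CAB39L, which encodes MO25 beta, was at 15.3 ± 4.00 CPM in knockdown and 49.0 ± 4.43 CPM in control libraries (SD, n = 5 each, log2 fold change -1.68, adjusted p = 1e-06, edgeR). STRADA was at 12.7 ± 2.48 CPM in knockdown and 24.4 ± 1.11 CPM in control libraries (SD, n = 5 each, -0.94, adjusted p = 1.8e-05, edgeR). STRADB had a log2 fold change of 0.02 and MAP3K7, the kinase TAK1, one of -0.18, and neither passed.

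Among the sirtuin members SIRT1 rose, and SIRT3 and SIRT5 fell. SIRT1 (ENSG00000096717, chromosome 10, 67884656 to 67918390, plus strand), the nuclear deacetylase that acts on PGC-1 alpha, FOXO factors and p53, had 60.6, 54.6, 61.6, 61.7 and 55.7 CPM in knockdown replicates 1 to 5. It had 31.1, 28.4, 33.4, 32.4 and 31.7 CPM in the controls. All knockdown libraries lay above all controls and close to each other, replicates 1 and 2 included. SIRT1 was 1.87-fold higher (log2 fold change 0.91 ± 0.0767 SE, adjusted p = 4.9e-07, edgeR), the smallest p among the 10 members.

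SIRT3 (ENSG00000142082, chromosome 11, 215030 to 236931, minus strand) encodes the main deacetylase of mitochondria. Its values were 22.6, 25.6, 21.9, 19.4 and 24.5 CPM in knockdown replicates 1 to 5, against 35.9, 33.7, 32.4, 36.7 and 36.8 CPM in the controls. The groups did not overlap, and SIRT3 was 1.54-fold lower (log2 fold change -0.62 ± 0.0906 SE, adjusted p = 4.1e-05, edgeR). RIC8A, a coding gene on the opposite strand, shares 84 bases of exon with SIRT3, or 1.51% of its exon length. Its log2 fold change was -0.17 and did not pass (adjusted p = 0.08, edgeR), and reads in the shared stretch cannot be told apart.

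SIRT5 (ENSG00000124523, chromosome 6, 13574227 to 13615158, plus strand), which removes succinyl, malonyl and glutaryl groups, had 17.6, 23.3, 14.4, 14.97 and 14.6 CPM in knockdown replicates 1 to 5. The controls had 40.2, 39.4, 37.8, 39.9 and 35.1 CPM. All knockdown libraries were lower, with replicate 2 the highest of them, and SIRT5 was 2.26-fold lower (log2 fold change -1.18 ± 0.132 SE, adjusted p = 4.6e-06, edgeR). The antisense gene ENSG00000261071, which shares 9.37% of the exon length of SIRT5, went the other way, with 898 counts in all knockdown and 20 in all control libraries.

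The other sirtuins were listed as context. SIRT4, a mitochondrial sirtuin that inhibits glutamate dehydrogenase, was at 12.7 ± 1.74 CPM in knockdown and 5.47 ± 0.531 CPM in control libraries (SD, n = 5 each, log2 fold change 1.22, adjusted p = 1.5e-06, edgeR). SIRT6, a chromatin deacetylase, was at 27.2 ± 4.01 CPM in knockdown and 13.8 ± 0.623 CPM in control libraries (SD, n = 5 each, 0.98, adjusted p = 3.6e-06, edgeR). SIRT7, found in the nucleolus, rose by 1.08 and the largely cytosolic SIRT2 fell by 1.07 on the log2 scale. All 7 sirtuin genes passed the test, as did 79.7% of all tested genes, with SIRT1, SIRT4, SIRT6 and SIRT7 higher and SIRT2, SIRT3 and SIRT5 lower. SIRT6 (8.5 kb) and SIRT7 (9.4 kb) are short genes, and 64.4% of coding genes spanning 3 to 10 kb were higher. SIRT4 (10.9 kb) and SIRT2 (21.3 kb) lie in the class of 10 to 30 kb, where 48.9% were higher and 29.1% lower. The part of gene span in these changes was not tested.

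Start regions of genes that moved are shown from RefSeq (GRCh38.p14, 250 bases before to 50 after the start, in the gene's own direction), as the members fall into a rising and a falling set. All 10 members matched, with 15 start regions. They were searched on both strands for the palindromic core motif of NRF1 (a regulator of mitochondrial genes, in capitals in SIRT5), CACGTG (an E-box), CCGGAAG (ETS factors), CCAAT (NF-Y, ATTGG on the other strand) and TGACGTCA (CREB). Matches are in capitals, and no match overlapped one of another motif. The beta pair that rose together, SIRT1, the gamma 1 gene and SIRT5 are printed.
PRKAB1, chr12:119667883-119668182 (plus strand): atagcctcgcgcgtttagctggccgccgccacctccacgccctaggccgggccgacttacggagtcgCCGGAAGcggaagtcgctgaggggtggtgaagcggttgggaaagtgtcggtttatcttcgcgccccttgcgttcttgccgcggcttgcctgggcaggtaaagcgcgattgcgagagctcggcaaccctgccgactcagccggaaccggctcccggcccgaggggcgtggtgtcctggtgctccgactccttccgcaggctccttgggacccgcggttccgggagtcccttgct
PRKAB2, chr1:147172421-147172720 (minus strand): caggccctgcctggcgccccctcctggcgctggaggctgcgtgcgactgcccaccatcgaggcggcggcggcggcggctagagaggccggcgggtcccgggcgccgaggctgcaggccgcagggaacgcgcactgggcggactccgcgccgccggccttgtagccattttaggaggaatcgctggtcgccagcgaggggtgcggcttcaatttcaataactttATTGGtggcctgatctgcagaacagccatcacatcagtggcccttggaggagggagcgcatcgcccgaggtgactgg
SIRT1, chr10:67884406-67884705 (plus strand): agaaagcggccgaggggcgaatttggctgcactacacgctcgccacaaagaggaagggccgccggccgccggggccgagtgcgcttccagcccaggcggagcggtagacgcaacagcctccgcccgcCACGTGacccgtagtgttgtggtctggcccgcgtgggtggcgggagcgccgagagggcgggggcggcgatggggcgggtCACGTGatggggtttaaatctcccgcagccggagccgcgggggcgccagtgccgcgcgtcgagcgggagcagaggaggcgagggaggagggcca
PRKAG1, chr12:49018727-49019026 (minus strand): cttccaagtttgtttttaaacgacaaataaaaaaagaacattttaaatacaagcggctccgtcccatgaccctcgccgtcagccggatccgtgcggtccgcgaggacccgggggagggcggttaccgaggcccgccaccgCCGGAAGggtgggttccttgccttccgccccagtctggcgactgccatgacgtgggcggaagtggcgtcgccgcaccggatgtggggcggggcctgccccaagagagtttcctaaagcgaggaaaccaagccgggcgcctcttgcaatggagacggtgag
SIRT5, chr6:13574279-13574578 (plus strand): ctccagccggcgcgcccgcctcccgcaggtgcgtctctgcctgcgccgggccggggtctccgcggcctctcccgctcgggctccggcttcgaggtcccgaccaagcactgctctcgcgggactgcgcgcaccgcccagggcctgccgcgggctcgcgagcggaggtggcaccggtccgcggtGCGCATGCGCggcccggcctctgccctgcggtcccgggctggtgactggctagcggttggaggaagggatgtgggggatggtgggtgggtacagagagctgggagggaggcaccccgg
The SIRT1 region held 2 E-boxes, a motif found in 7.26% of 35116 start regions of this length. The NRF1 motif, found in 1.24% of all regions, matched at 1 position of SIRT5, which lies in both of its overlapping start regions. The ETS motif, in 10.3% of all regions, stood in those of PRKAB1, PRKAG1, SIRT3 and 1 of the 5 regions of PRKAG2. CCAAT, in 34.6% of all, occurred in those of PRKAB2, STK11 (3 matches) and 1 of PRKAG2, and TGACGTCA, in 1.85% of all, in none of the members. No motif of the 5 was shared by the regions of PRKAB1 and PRKAB2. These are matches of letters and not measured sites. The 5 printed regions had 61.7% to 76.3% G and C and 29 to 39 CG pairs, against medians of 58.7% and 14 over all regions. The shares over all regions were not matched to that content.

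Gene span went with the direction of change across the whole table, and the members are set against it here. Among coding genes spanning 10 to 30 kb the median log2 fold change was 0.27, at 30 to 100 kb it was -0.48, and at 300 to 1000 kb -2.06. PRKAG2, with 321 kb, had a value of -1.81 in a class where 93.6% of 637 genes were lower. SIRT5 (40.9 kb) fell in a class in which 57.0% of 4783 genes did, with -1.18 beside the class median of -0.48. PRKAA2 (70.0 kb) and SIRT1 (33.7 kb) rose in that same class, where 23.2% were higher. PRKAG1 (16.5 kb) and SIRT3 (21.9 kb) fell in the class of 10 to 30 kb, where 29.1% of 4068 genes were lower and 48.9%, as PRKAB1 (13.8 kb) and PRKAB2 (17.4 kb), were higher. PRKAB1 and PRKAB2, at 1.36 and 1.37, stood above their class median of 0.27. The part of gene span in the change of any member was not tested.

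**Figure D4:**
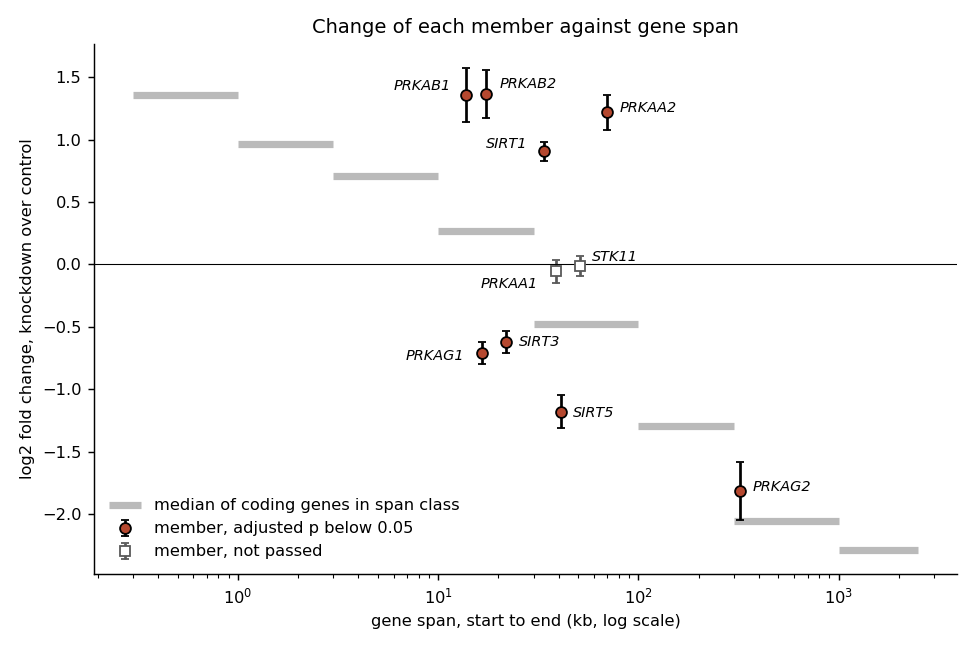
Log2 fold change (knockdown over control) ± SE of each member against gene span on a log scale, with grey bars for the median of all tested coding genes in 8 span classes. PRKAA2, SIRT1, PRKAB1, PRKAB2, PRKAA1 and STK11 lie above the bar of their class and PRKAG1, SIRT3 and SIRT5 below theirs. PRKAG2 is near its class at -2.06.

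Spread among libraries was wider in the knockdown. The coefficient of variation of the members' CPM was 5.16% to 42.3% in knockdown and 2.73% to 15.2% in control libraries, and it was greater in the knockdown for 8 of 10 members, as for 69.9% of all tested genes. It was widest for PRKAG2, PRKAB1 and PRKAB2, in which replicates 1 and 2 lay toward the controls. These were also the knockdown libraries with the lowest mitochondrial share, and its part in the spread was not tested. SIRT1 and STK11 varied no more in knockdown than in control libraries.

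Around the members, 91 genes in 7 lists were read from the same fit, of which 87 were tested, 27 higher and 47 lower, beside 40.1% higher and 39.6% lower (79.7% called) among all tested genes. Of 12 AMPK-related kinases under LKB1, 8 fell and 3 rose, at a median log2 fold change of -1.12 and a median span of 97.0 kb. Among all tested genes 39.6% were lower, and among coding genes of 30 to 100 kb and 100 to 300 kb 57.0% and 82.7% were. SIK3, a salt-inducible kinase, was at 13.6 ± 6.87 CPM in knockdown and 132 ± 8.02 CPM in control libraries, and MARK3, a kinase of microtubule and polarity proteins, at 16.8 ± 4.54 and 99.3 ± 5.54 CPM in the same order (SD, n = 5 each). Their log2 fold changes were -3.28 and -2.56. SIK1 rose by 0.86, though its near-identical copy SIK1B makes its counts uncertain, and NUAK2, a stress-induced relative of AMPK, by 1.71.

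Regulators of AMPK had 5 of 8 lower and 1 higher, with a median of -0.38 and a median span of 64.5 kb. Lower genes made up 39.6% of all tested genes and 57.0% of coding genes spanning 30 to 100 kb. FLCN, folliculin, whose loss activates AMPK in other systems, was at 10.8 ± 2.29 CPM in knockdown and 45.8 ± 4.92 CPM in control libraries (SD, n = 5 each, log2 fold change -2.08, adjusted p = 1.3e-07, edgeR). The phosphatase gene PPM1E fell by 1.63 on the log2 scale, at a level of 0.784 CPM in knockdown and 2.47 CPM in control libraries. LAMTOR1, a lysosomal anchor of AMPK and mTORC1, rose by 0.27 (adjusted p = 0.022, edgeR). That call was lost without control replicate 1 (0.23), control replicate 2 (0.23) or control replicate 5 (0.25), and with no filter beyond 1 count (0.24).

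Of 24 genes of AMPK substrates 9 rose and 14 fell, and the median log2 fold change was -0.77. Over all tested genes 40.1% were higher and 39.6% lower. The list's median span was 46.8 kb, and of coding genes spanning 30 to 100 kb 23.2% were higher and 57.0% lower. RPTOR, the mTORC1 scaffold, was at 9.28 ± 2.33 CPM in knockdown and 57.2 ± 3.36 CPM in control libraries (SD, n = 5 each), and HDAC4, a class IIa deacetylase, at 3.51 ± 0.783 and 20.02 ± 2.34 CPM in the same order. Their log2 fold changes were -2.62 and -2.51, and they span 422 and 353 kb. MFF, the receptor through which AMPK promotes mitochondrial fission, rose by 1.18, and SREBF1, the regulator of fatty acid synthesis, by 1.09. The list thus held falling and rising substrates, without a common direction.

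NAD+ is the cosubstrate of sirtuins. Of 17 tested genes of its synthesis and use, 5 rose, 7 fell and 5 did not pass, with a median of -0.19. Across all tested genes 40.1% rose and 39.6% fell. The list's median span was 39.7 kb, and of coding genes spanning 30 to 100 kb 23.2% rose and 57.0% fell. NMNAT3 and NMNAT1, which complete NAD+ synthesis, had log2 fold changes of -2.30 and -1.16, with NMNAT1 at 14.3 ± 2.51 CPM in knockdown and 31.9 ± 1.94 CPM in control libraries (SD, n = 5 each). SLC25A51, the carrier that brings NAD+ into mitochondria, rose by 0.94, and SARM1, which cleaves NAD+, by 1.12. NAMPT, the rate-limiting enzyme of salvage, chosen after its values were seen, had 124 ± 2.79 CPM in knockdown and 141 ± 19.8 CPM in control libraries (SD, n = 5 each, log2 fold change -0.19, adjusted p = 0.1, edgeR).

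Regulators and substrates of sirtuins had 6 of 15 tested genes higher and 7 lower, with a median of -0.34. Across all tested genes 40.1% were higher and 39.6% lower. The median span of this list was 38.8 kb, and of coding genes spanning 30 to 100 kb 23.2% were higher and 57.0% lower. CCAR2 (DBC1), an inhibitor of SIRT1, was at 210 ± 22.6 CPM in knockdown and 96.1 ± 3.72 CPM in control libraries (SD, n = 5 each, log2 fold change 1.13, adjusted p = 3.8e-07, edgeR). RELA, an NF-kB subunit that SIRT1 deacetylates, rose by 1.06. GLUD1, glutamate dehydrogenase, fell by 1.08 and CPS1, a SIRT5 substrate of the urea cycle, by 1.98 on the log2 scale. SIRT1 and its inhibitor CCAR2 were thus both higher, and SIRT5 and CPS1 both lower, in the knockdown.

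**Figure D5:**
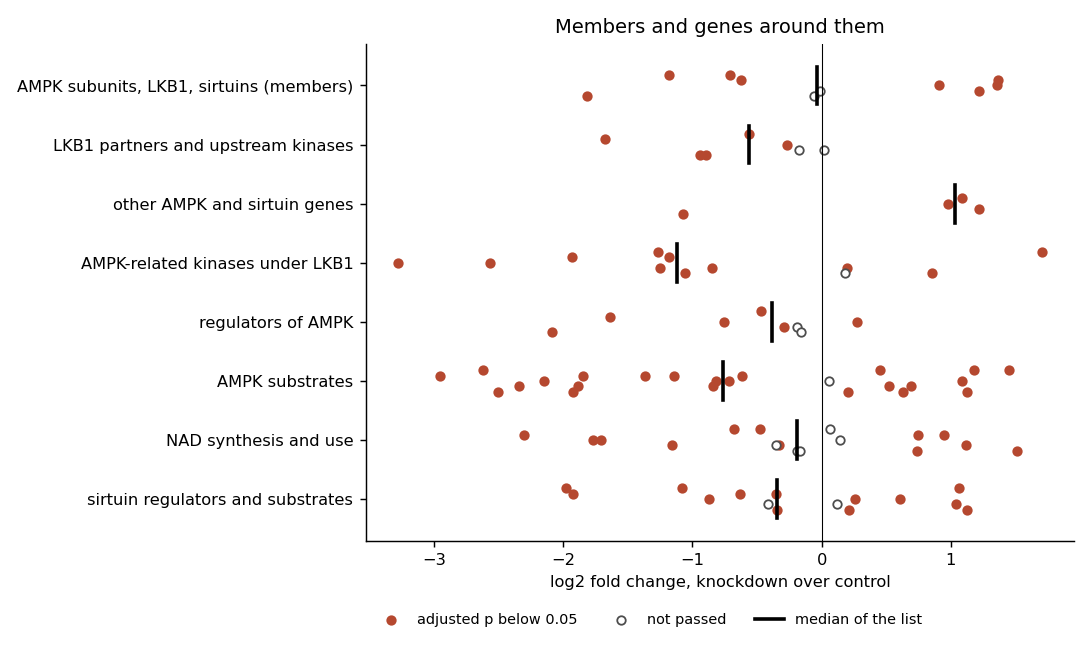
Log2 fold change (knockdown over control) of the 10 members and of each tested gene in the 7 context lists, filled where the adjusted p was below 0.05 and open where it was not, with a black bar at the list's median. Genes under LKB1 and AMPK substrates extend furthest to lower values, and each list except that of LKB1 partners and upstream kinases has called genes on both sides of 0.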

How the data were processed

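Total RNA was measured in 5 knockdown and 5 control libraries, grouped by the sample titles. Libraries were strand-specific after depletion of ribosomal RNA, per the labels' protocols. The deposited table holds raw read counts per gene, not normalised. Per the submitters' processing notes, the authors used Trim Galore 0.65, STAR 2.7.0 on GRCh38 and HTSeq. Its strand setting was not stated there. The design text names GENCODE release 38, but 17397 identifiers are numbered above the highest of release 44, so the annotation counted was later than both. It also describes CPM and length normalisation, but the values are whole numbers with unequal totals, so they were taken as unnormalised. Names and positions were matched by identifier to release 44 (61481 of 78932 identifiers). The unmatched 17451, with 0.25% to 0.408% of counts, were kept in sizes and tests.

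Counts were filtered with filterByExpr, scaled by TMM and tested with edgeR 4.0.16 (robust quasi-likelihood F test, Benjamini-Hochberg over 21033 genes, threshold 0.05) in R 4.3.3. SE is the log2 fold change over the square root of F, and 95% intervals are 1.96 SE to each side. TMM assumes that rises and falls balance, which a table with 79.7% of genes called cannot check, so each change is measured against the average gene. Paralog ratios used counts plus 0.5 and exact permutation tests (scipy 1.17.1) over all assignments of 5 of 10 libraries. Every pair of replicates differed by more than sampling noise (chi-square divided by its degrees of freedom at least 4.41). Simulated data of this comparison, with 20637 genes, had 67 genes changed 1.5-fold (40.3% recovered), 67 changed 2-fold (82.1%) and 66 changed 4-fold (100%). Of 154 calls 6 were false. Far fewer genes were changed there than the 79.7% called here, and both groups were given the same spread. These rates may therefore not carry over to the real data.

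The members, the context lists and the tests were chosen with earlier results of these data known. All members are named, and from each context list the 2 rising and 2 falling called genes with the smallest p. Genes overlapping a member were added. SIRT7, STRADB, MAP3K7, NAMPT, PRKAG3, APOA1, EPCAM, KDR and genes next to members were named after their values were seen. Alternatives were DESeq2 1.42.0 and its size factors, upper-quartile factors, limma-voom (limma 3.58.1), other filters, no robust dispersion, mitochondrial genome genes removed, a replicate block and libraries left out. Counts per library limit precision through counting error only. Figures were drawn with matplotlib 3.10.9.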

Additional observations from a re-analysis of the deposited data

Results flagged for a closer look

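Among 136 groups of 5 libraries (65 genes, which are the members, the context genes and markers given with values, and overlapping and neighbouring genes, and 3 ratios, in each group), 7 held a library far from the other 4, where chance gives about 1 in 20, and none of them was a value of the 10 members. SIK3 was at 25.5 CPM in knockdown replicate 2, against 7.60 to 12.1 CPM in the other knockdown libraries. NMNAT3 was at 2.45 CPM in knockdown replicate 2, against 1.03 to 1.35 CPM in the others. GLUD1 was at 70.1 CPM in knockdown replicate 2, against 58.7 to 61.5 CPM in the others. SLC25A51 was at 41.1 CPM in knockdown replicate 4, against 34.3 to 35.6 CPM in the others. RHEB, a neighbour of PRKAG2, was at 40.8 CPM in knockdown replicate 2, against 25.9 to 29.3 CPM in the others. FMO5, a neighbour of PRKAB2, was at 1.89 CPM in knockdown replicate 2, against 2.84 to 3.02 CPM in the others. DDN, a neighbour of PRKAG1, was at 4.02 CPM in control replicate 2, against 2.60 to 2.99 CPM in the other control libraries. SIK3, NMNAT3, GLUD1 and RHEB, which fell, were thus nearest to the controls in knockdown replicate 2, the library nearest to the controls on the first principal component.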

How the results depend on the processing

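Over 20 alternative settings the 10 members gave 200 fold changes, of which 191 kept direction and side of the threshold. The 8 that changed sign belonged to the uncalled STK11 (0.013 with DESeq2's size factors, 0.014 with DESeq2, 0.041 with a mean of at least 1 CPM, 0.19 with upper-quartile factors, -0.062 to 0.011 with single libraries left out) and PRKAA1 (0.14 with upper-quartile factors). PRKAA1 passed without knockdown replicates 1 and 2 (-0.22). The members called were 4 higher and 4 lower in every setting except upper-quartile factors (5 higher) and the omission of those 2 libraries (5 lower). Counts of all genes and of context genes stayed within 1.5 times, 8225 to 8821 higher and 8136 to 8829 lower with single libraries left out. With the replicate block 8214 genes were higher and 8211 lower. The labels do not say that replicate numbers pair samples, and same-numbered libraries had correlated deviations of -0.17 to 0.22, with 2 of 5 knockdown libraries correlating best with their own number. With a sign-flip test on these pairs as a block, whose smallest p is 0.0625, the ratio differences were 1.28 for alpha and -1.18 for gamma and did not pass. Without knockdown replicates 1 and 2 they were 1.25 and -1.41, not passing with 3 libraries left, and the uncalled beta difference was -0.049. With single libraries left out they ranged from 1.20 to 1.34, from -1.35 to -1.09 and, for beta, from -0.025 to 0.066. Depth did not limit the members, each with at least 464 counts in a library.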

Other observations

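Genes next to the members moved with them about as often as against them. Of 11 pairs in which a member and its neighbour both passed the test, 5 had the same and 6 the opposite direction. Nearest coding neighbours on each side were read from the annotation, a choice made after the data were seen. PRKAA2 and PLPP3, a lipid phosphate phosphatase gene, start on opposite strands 0.012 kb apart, and PLPP3 was at 13.6 ± 3.93 CPM in knockdown and 23.1 ± 4.14 CPM in control libraries (SD, n = 5 each, log2 fold change -0.76, adjusted p = 0.0026, edgeR) while PRKAA2 rose. SIRT3 and the proteasome gene PSMD13 are likewise divergent, 0.034 kb apart, and PSMD13 was at 86.3 ± 8.06 CPM in knockdown and 61.6 ± 2.81 CPM in control libraries (SD, n = 5 each, 0.49, adjusted p = 0.00015, edgeR) while SIRT3 fell. Downstream of PRKAG1, on the same strand and 2.90 kb from its end, DDN was at 225 ± 87.7 CPM in knockdown and 3.03 ± 0.573 CPM in control libraries (SD, n = 5 each, 6.21), whereas PRKAG1 and its upstream neighbour KMT2D fell (-0.71 and -0.87). RHEB fell beside PRKAG2 (-1.21) and GFOD1 beside SIRT5 (-1.40), and DNAJC12 rose beside SIRT1 (1.13) and FMO5 beside PRKAB2 (0.46). CIT fell beside PRKAB1 (-1.02), NBPF12 beside PRKAB2 (-2.33) and HERC4 beside SIRT1 (-0.34).

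For each member, the coding gene with the most similar log2 CPM over the 10 libraries was found, as a description. It was picked from all coding genes with a mean of at least 1 CPM. For the called members the difference between groups dominates the correlation. The Pearson correlation was 0.999 between PRKAG2 and NXN and between PRKAB1 and TSPYL1, 0.998 between SIRT5 and RAB7A, 0.997 between PRKAG1 and SLC30A6 and between PRKAB2 and DUSP26, 0.996 between SIRT1 and NELFA, 0.991 between SIRT3 and CLTCL1 and 0.990 between PRKAA2 and ZNF611. PRKAA1 was closest to APPL1 (0.971) and STK11 to TDP2 (0.952), whose log2 fold changes were -0.06 and -0.01. In these pairs the groups hardly differed.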
